A study of Mus musculus with 6 samples.

Results

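The genes described here encode the machinery that docks, primes and fuses secretory vesicles: synaptotagmins, syntaxins, the SNAP-25 and VAMP families, syntaxin-binding proteins (Stxbp), the priming proteins Unc13, Rims and Cadps, complexins, Doc2 proteins and the GTPases Rab3 and Rab27. They were chosen by symbol and biotype, with earlier results of these data known. The pattern found 73 protein-coding genes among the 55487 genes of the deposited tables. RNA was sequenced from αTC1 cells, a mouse glucagonoma line of pancreatic α cell origin, treated with G786-1089 or with DMSO, its solvent, and all columns carry the mark WT. The series describes G786-1089 as an inhibitor of the splicing factor SMNDC1, and it was taken to be compound 1 of the study. Each treatment had 3 libraries, called A, B and C after the letters of their columns, and the labels give neither a dose, a duration nor a batch. The study's methods say of its cell culture work in general that the treatments of a replicate were divided from a common batch of cells and handled together, but no source used here ties the letters to replicates. Whether the 3 libraries of a treatment were separate cultures is not stated for the sequencing, so p-values measure only the spread between these samples.

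A secretory vesicle fuses when a VAMP on its membrane zips together with a syntaxin and a SNAP-25 family protein on the target membrane. Munc18 proteins, encoded by Stxbp genes, hold the syntaxin ready, Unc13 and Rims proteins prime the vesicle, complexins clamp the complex, and calcium-binding synaptotagmins release it. Rab3 and Rab27 tether vesicles beforehand, and α cells use this machinery to release glucagon granules. Other syntaxins serve the endosomes, the Golgi apparatus and the endoplasmic reticulum (ER) in every cell.

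Of the exocytosis genes with a mean of at least 10 FPKM in DMSO, 10 passed the test, and 8 of these were lower with G786-1089. Among all genes at that level that passed, 70.3% were lower, so the split of the members is near that of all genes. Among the genes that fell were the synaptotagmins Syt13, Syt3 and Syt4, the plasma membrane SNARE Snap25, the endosomal syntaxin Stx7 and the vesicle GTPases Rab3d and Rab3c. The genes that rose were Stx18 and Stx5a, syntaxins of the ER and the Golgi apparatus, and Doc2g, which was found only at low level and in no DMSO library. With each of the 6 libraries left out in turn, Rab3d passed in 2 fits, Stx5a and Doc2g in 1 each, and Rab3c in 0. The other genes named so far passed in all 6. No VAMP, plasma membrane syntaxin, complexin or priming protein passed edgeR's test, and several of these were close to 0. At an unadjusted p under 0.05, Vamp3 was the 1 gene among them, and it passed in DESeq2 as well. In bulk RNA, a smaller number of cells that express a gene and less RNA per cell cannot be told apart.

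Of the 73 members, 51 had enough counts to be tested, and 11 passed edgeR's quasi-likelihood test at an adjusted p under 0.05, 3 higher and 8 lower with G786-1089. With the column letter as a replicate block, 7 members passed, 1 of them higher. Over all 15082 tested genes, 14.8% passed without the block, 6.98% higher and 7.8% lower, beside 21.6%, 5.88% and 15.7% of the tested members. On the log2 scale the tested members had a median change of -0.11, and all tested genes 0.04. Below 0 lay 27 of the tested members, and 48.2% of all tested genes. The median was the same with Doc2g set at its fold over the floor given below. With the study's own limits, an adjusted p of at most 0.1 and a change of at least 1 on the log2 scale, 1 member was higher and 4 were lower, beside 10.4% of all genes in either direction. The FPKM ranges (fragments per kilobase, as deposited by the authors) of the treatments did not overlap for 17 of the 51 tested members, and for 36.7% of all tested genes.

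Totals ran from 59070705 to 94747943 counts, and every G786-1089 library was deeper than every DMSO library. The exocytosis genes held between 0.232% and 0.304% of the counts of a library. Of all counts from 1 to 10, 78.1% were even, so that a count is not always an independent fragment. Among the α cell markers, Gcg, the glucagon gene, stood at 2401 to 3024 FPKM with G786-1089 and at 17086 to 19365 with DMSO. Of 8 α cell markers 7 were tested, and 5 fell, with summed levels of 3743 to 4357 FPKM with G786-1089 and 20322 to 22676 with DMSO.

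In DMSO the fusion genes spanned a wide range of levels. Syt13 led at a mean of 175.2 FPKM, followed by Snap47 at 137.1, Snap25 at 107.9 and Syt4 at 50.9, and each of these stood apart from the next in all 3 libraries. Behind Syt4 came Stx7, Stx5a, Stx18 and Syt11 at means between 29.5 and 41 FPKM, and neighbours in that order overlapped. From Vamp3 at 21.2 FPKM downwards, all neighbours overlapped in their ranges down to Stx1a and Rims2. A mean of at least 10 FPKM was reached by 17 members, a mean from 1 to 10 by 21 members, and 35 members stayed under 1 FPKM.

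The test outcome went with the level. Among the 17 members of at least 10 FPKM, 2 rose and 8 fell, with a median log2 fold change of -0.50. Of all 4573 genes at that level, 31.3% passed, 9.32% higher and 22% lower. The 21 members between 1 and 10 FPKM gave 0 calls in edgeR, 0 in DESeq2 and 0 at an unadjusted p under 0.05, and their median standard error was 0.388 against 0.175 above 10 FPKM. Under 1 FPKM, 13 members could be tested, 1 of which, Doc2g, passed, and their median standard error was 0.841. Changes of the less expressed genes were thus measured with far less precision.

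**Figure D1:**
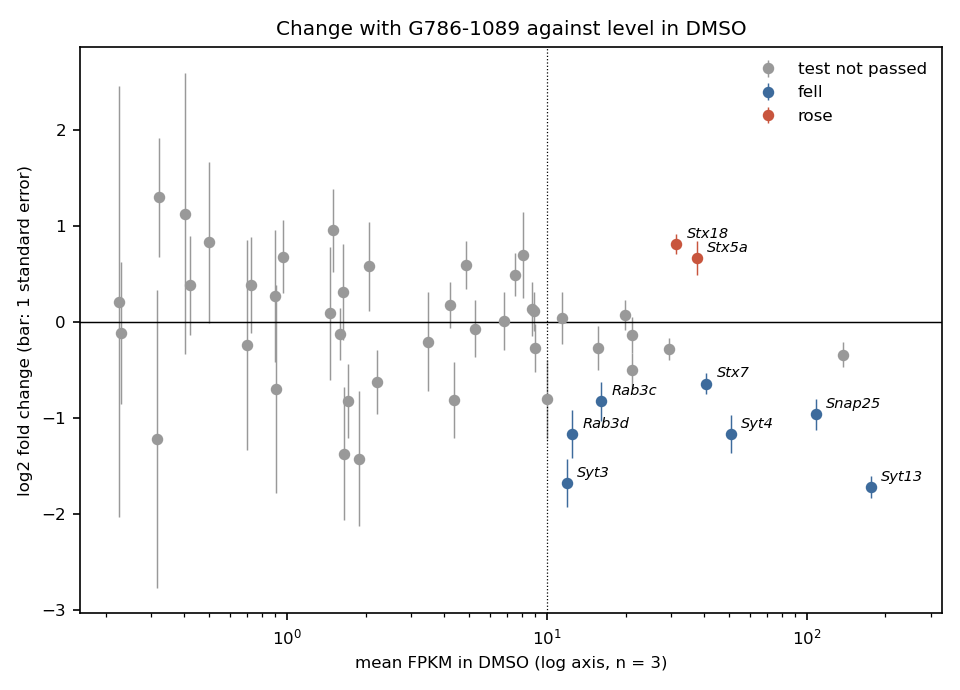
Log2 fold change with G786-1089 against DMSO (vertical axis) for the tested members other than Doc2g and a gene not reported here, against its mean FPKM in DMSO on a log axis (n = 3 per treatment); bars are 1 standard error and the dotted line marks 10 FPKM. The named points, 7 blue that fell and 2 red that rose, all lie to the right of the line, where the bars are shortest.

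The genes Syt13 and Syt3 had the largest decreases among the members that passed. Among 17 synaptotagmins, 11 were tested, of which 3 fell and 0 rose, in edgeR and DESeq2 alike and also at an unadjusted p under 0.05. Of all tested genes, 7.8% fell and 6.98% rose in edgeR. At 10 FPKM or more in DMSO, where these 3 lay, 22% of all genes fell and 9.32% rose. The same shares stand beside the counts of the other families below. Their summed level was 124.6 ± 13.8 FPKM with G786-1089 and 287.4 ± 15.1 with DMSO (mean ± SD, n = 3).

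Syt13 (chromosome 2, 92915098 to 92956058, GRCm38, plus strand) encodes a synaptotagmin whose C2 domains do not bind calcium. Its level was 58.4, 56.3 and 45.1 FPKM in the G786-1089 libraries A, B and C, and 186, 176 and 164 FPKM in the DMSO libraries. Every treated library lay far below every control, and the treatments did not overlap. The log2 fold change was -1.71 ± 0.12 (SE), or 3.28-fold lower, with an adjusted p of 0.00038 (edgeR). Syt13 held 60.95% ± 0.66 of the summed synaptotagmin FPKM with DMSO and 42.7% ± 2.71 with G786-1089, a difference that the exact two-sided permutation test placed at p = 0.1, the smallest that 3 libraries against 3 allow, and at 0.267 after adjustment over the leading shares of 8 families.

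Syt4, on chromosome 18, belongs with Syt11 to a subfamily in which a calcium-binding residue of the first C2 domain is replaced. It was at 28.3, 16.8 and 22.8 FPKM with G786-1089 and at 51.4, 46.4 and 54.8 FPKM with DMSO. The highest treated library lay well under the lowest control. The log2 fold change was -1.16 ± 0.20, with an adjusted p of 0.0108 (edgeR). An antisense transcript, Gm26658, shares 14.5% of the exon bases of Syt4, and it had at most 2 counts in any library. Syt11 itself was at 22.1 to 26.4 FPKM with G786-1089 and 26.4 to 32.2 with DMSO, and its log2 fold change of -0.28 ± 0.12 did not pass (edgeR, adjusted p = 0.183).

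The third gene that fell, Syt3 (chromosome 7, 44384102 to 44400187, plus strand), encodes a synaptotagmin that binds calcium. Its values were 4.49, 2.75 and 3.85 FPKM with G786-1089 and 11.3, 13.4 and 11 FPKM with DMSO. The treatments were apart, and the change was -1.68 ± 0.25 on the log2 scale (edgeR, adjusted p = 0.00707). Of the 8 calcium-binding synaptotagmins, 6 were tested, and Syt3 was the 1 that passed.

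Syt5, a calcium sensor of dense-core vesicles, was near the level of Syt3 in DMSO but was 11, 14.7 and 9.35 FPKM with G786-1089 and 13.5, 12.2 and 8.33 with DMSO, a log2 fold change of 0.04 ± 0.27. Syt7, a high-affinity calcium sensor for slower granule release and a gene of the study's splicing panel, was at 1.43, 1.36 and 1.59 FPKM with G786-1089 and 2.02, 1.47 and 1.3 with DMSO. Both genes overlapped between treatments, and the log2 fold change of Syt7 was -0.12 ± 0.27 (edgeR, adjusted p = 0.819). Syt2 lay between 3.35 and 6.23 FPKM in the 6 libraries. Syt1, the classical sensor of synapses, and Syt9 were below or near 1 FPKM, with standard errors of 1.08 and 0.50. Syt14 and Syt17 were lower still in some libraries, and Syt17 ranged from 0 to 0.667 FPKM within DMSO alone.

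**Figure D2:**
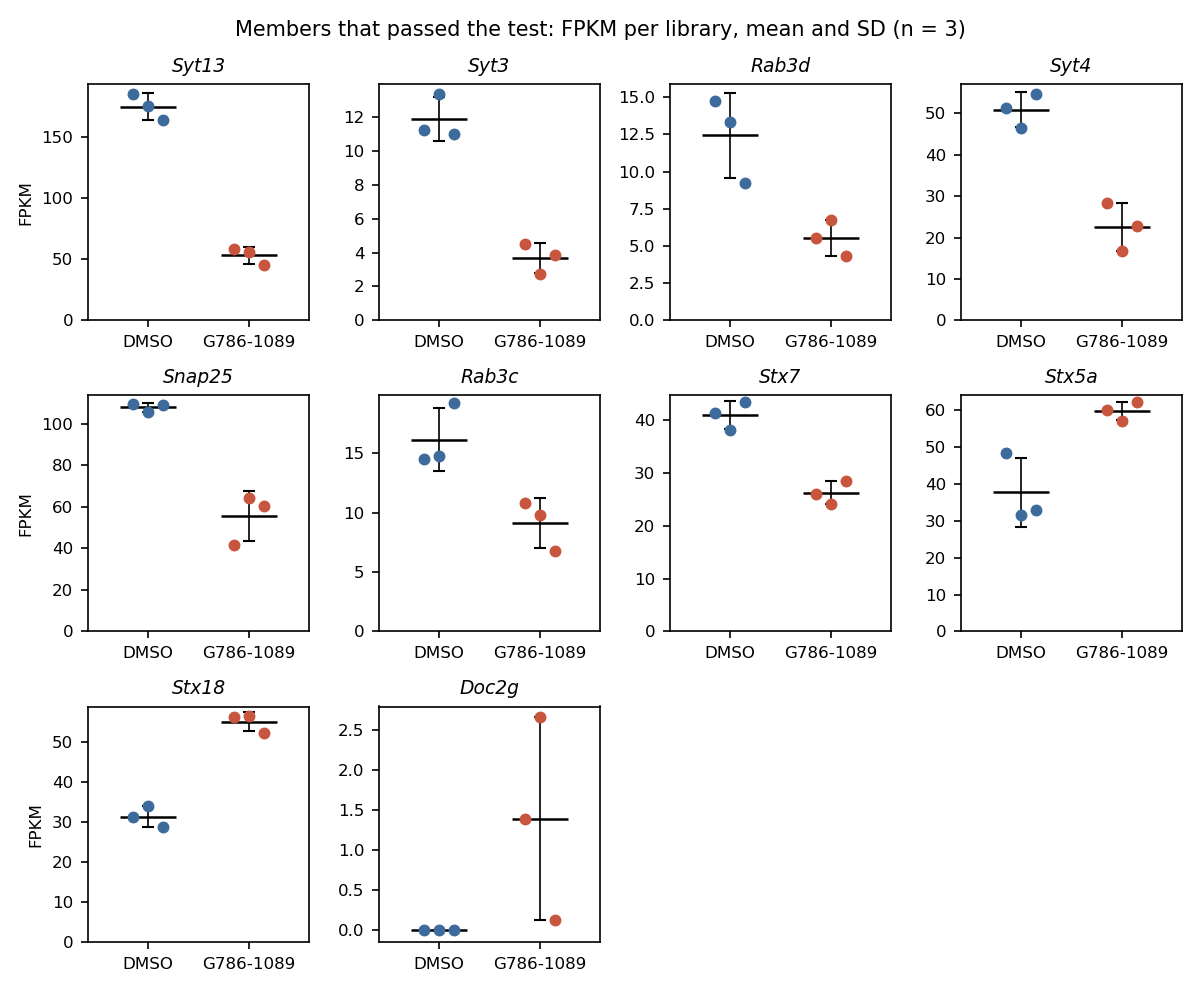
FPKM of each library (points) with the mean and SD (lines, n = 3 per treatment) for 10 of the 11 members that passed the test, DMSO in blue and G786-1089 in red, each panel on its own linear scale. Points of the treatments do not overlap in any panel; Syt13 lies at 164 FPKM or more with DMSO and at 58.4 or less with G786-1089, and Doc2g is 0 in each DMSO library.

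The proteins that SNAP-25 family genes encode give the fusion complex 2 of its 4 helices. All 4 genes were tested, and 1 fell. Snap25 (chromosome 2, 136713453 to 136782428, plus strand), the form of neurons and endocrine cells, was at 41.7, 64 and 60.4 FPKM with G786-1089 and at 109, 105 and 109 FPKM with DMSO. The DMSO libraries were nearly level, and library A with G786-1089 was the lowest of all. The log2 fold change was -0.96 ± 0.16, or 1.94-fold lower, with an adjusted p of 0.0109 (edgeR).

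Snap47, a family member without the palmitoylated stretch that anchors Snap25, had 118, 114 and 93.4 FPKM with G786-1089 and 155, 137 and 119 FPKM with DMSO. Its treated libraries were each below the lowest control, but the gap was small and the log2 fold change of -0.34 ± 0.13 did not pass (edgeR, adjusted p = 0.158). Snap23, the ubiquitous counterpart of Snap25, was at 7.71, 7.78 and 6.42 FPKM with G786-1089 and 3.68, 4.86 and 6.01 with DMSO. This was the reverse direction to Snap25, at a log2 fold change of 0.59 ± 0.25 that did not pass either (edgeR, adjusted p = 0.18). Snap29, which acts on endosomes and autophagosomes, overlapped between treatments at 4.48 to 9.64 FPKM. The family together was at 177.9 ± 13.1 FPKM with G786-1089 and 256.7 ± 18.2 with DMSO, and Snap47 held 60.9% ± 6.28 and 53.3% ± 3.29 of it (exact permutation test, p = 0.2, 0.32 adjusted).

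Syntaxins act at the plasma membrane or inside the cell. Of the 7 plasma membrane syntaxins, 4 were tested and 0 passed in edgeR or DESeq2, nor did any reach an unadjusted p under 0.05. All 4 were below 10 FPKM in DMSO, where no other member but Doc2g passed either. Stx1a, the main partner of Snap25 in regulated release, was at 2.86, 0.439 and 1.34 FPKM with G786-1089 and 1.22, 1.49 and 1.68 with DMSO, so that the treated libraries spanned the controls. Stx2 was the highest of them, at 7.45 to 17.1 FPKM with G786-1089 and 4.1 to 11.5 with DMSO. Stx3 was lower in each treated library, at a log2 fold change of -0.62 ± 0.33, and Stx4a was at 2.38 to 3.71 FPKM against 1.21 to 2.78.

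All 8 syntaxins of the endosome, Golgi and ER were tested, of which 2 rose and 1 fell. Whether they differ from the plasma membrane syntaxins was not tested. Stx7 (chromosome 10, 24149302 to 24190222, plus strand), a syntaxin of late endosomes, was at 26, 24.1 and 28.5 FPKM with G786-1089 and at 41.3, 38.1 and 43.5 FPKM with DMSO. The groups were well apart, with a log2 fold change of -0.64 ± 0.11 (edgeR, adjusted p = 0.0109).

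Stx18 (chromosome 5, 38038742 to 38137765, plus strand) acts on the ER in the return of vesicles from the Golgi apparatus. It rose from 31.4, 33.9 and 28.8 FPKM with DMSO to 56.2, 56.5 and 52.3 FPKM with G786-1089. Spread within each treatment was small beside the gap, and the log2 fold change was 0.81 ± 0.10, or 1.76-fold higher (edgeR, adjusted p = 0.00369). Other genes, Nsg1 and Gm42858 on the opposite strand, share 21.8% of its exon bases, and the counting ignored strand. Nsg1 had a log2 fold change of -0.35 ± 0.10 (edgeR, adjusted p = 0.0564), the other direction to Stx18.

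Stx5a (chromosome 19, 8741413 to 8756069, plus strand), syntaxin 5, drives fusion between the ER and the Golgi apparatus. It was at 59.9, 57.1 and 62.1 FPKM with G786-1089 and at 48.4, 31.5 and 33 FPKM with DMSO. DMSO library A was the control nearest to the treated libraries. The log2 fold change was 0.67 ± 0.18 (edgeR, adjusted p = 0.0483), just inside the threshold. The call held in only 1 of the 6 fits with a library left out, that without DMSO A (adjusted p = 0.0116), and without DMSO B, DMSO C, G786-1089 A, B or C the adjusted p was 0.139, 0.148, 0.116, 0.0961 and 0.130. With the replicate block the adjusted p was 0.0681.

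Stx5a was also the 1 gene among those that passed whose RefSeq promoter (GRCm38.p6, 250 bases before to 50 after an annotated start) held the letters ACGTG on either strand, the core of the element bound by hypoxia-inducible factors. Promoters were at hand for Stx18, Syt3, Rab3d, Stx7, Rab3c, Doc2g and Stx5a of the 11. Both matches lie just after the first of the annotated starts of Stx5a, on the plus strand of chromosome 19, and are shown with the motif or its reverse complement in capitals:
chr19:8741422-8741450: tggcgcagcagcCACGTcaccgagttagg
chr19:8741453-8741473: tacgtctaggtgACGTGgcgg
The same letters occur in 19.6% of all 32851 promoters and in 16 of the 67 promoters found for the exocytosis genes. The cyclic AMP response element TGACGTCA, which is its own reverse complement, occurs in 1.79% of all promoters and in 1 of the 67. That promoter belongs to Stxbp3, which was tested and lay under 1 FPKM in every library. It is shown for the minus strand of chromosome 3, with the motif in capitals:
chr3:108840592-108840621: gttgatgcgcgTGACGTCAcctgagggcgc
These matches describe the letters only.

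The remaining syntaxins of this class did not pass. Stx12 and Stx16, of endosomes and the trans-Golgi network, overlapped between treatments at 16.8 to 26.4 and 10.8 to 19.4 FPKM. Stx8 was at 8.61, 11.5 and 11.7 FPKM with G786-1089 and 9.47, 7.46 and 5.66 with DMSO. Stx6 overlapped throughout at 3.42 to 6.43 FPKM. Stx17, of autophagosomes, was higher in each treated library, but library C with 4.86 FPKM carried most of the difference, and the log2 fold change was 0.96 ± 0.43. Summed syntaxin FPKM was 210.9 ± 6.1 with G786-1089 and 175 ± 12 with DMSO. The share of Stx7 in it, the highest syntaxin by mean in DMSO but not with G786-1089, was 12.4% ± 1.05 and 23.5% ± 2.42 (exact permutation test, p = 0.1, 0.267 adjusted).

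**Figure D3:**
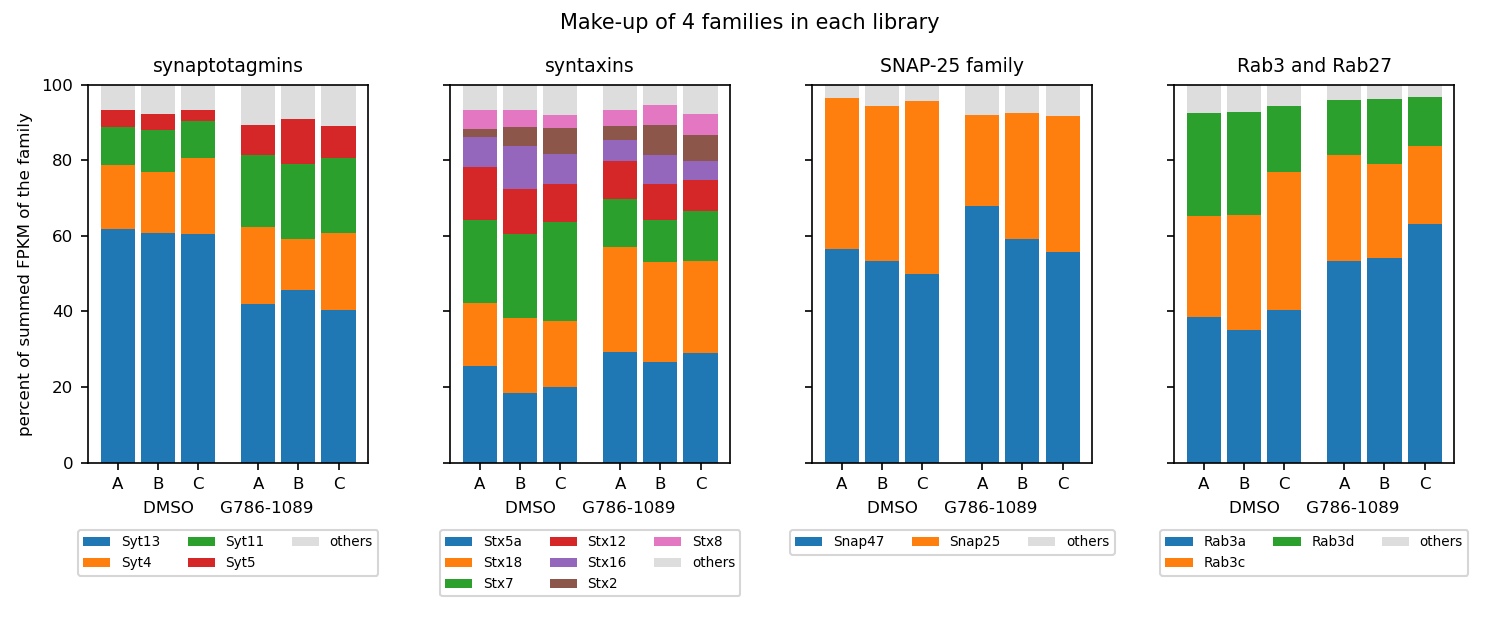
Percent of the summed FPKM of a family (vertical axis) held by each member in each library, for synaptotagmins, syntaxins, the SNAP-25 family and Rab3 with Rab27; bars A to C on the left of each panel are DMSO and on the right G786-1089, and grey holds the members not named in the legend. The Syt13 and Stx7 segments are narrower, and the Rab3a segment wider, in every G786-1089 library than in any DMSO library.

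VAMPs are the SNAREs of the vesicle. Of 7 genes, 6 were tested and 0 passed in edgeR, with 1, Vamp3, at an unadjusted p under 0.05. Vamp3, cellubrevin, was the highest at 14, 16.2 and 14.6 FPKM with G786-1089 and 22.3, 24.2 and 17.1 with DMSO. Its treatments were apart, but the log2 fold change of -0.50 ± 0.18 did not pass (edgeR, adjusted p = 0.124), except in DESeq2. Vamp7, of lysosomes, overlapped at 8.13 to 10.5 FPKM, with a log2 fold change of 0.11 ± 0.20. Vamp2, the vesicle SNARE of regulated secretion in neurons and islets, was at 0.112 to 0.368 FPKM, from 24 to 113 counts. Its change of -0.11 ± 0.74 (log2 fold change and SE) had a wide error. Vamp4 and Vamp8 overlapped between treatments, and Vamp1 ran from 0.0737 to 1.61 FPKM within DMSO. The sum of the VAMPs was 36.96 ± 1.12 FPKM with G786-1089 and 41.4 ± 0.98 with DMSO.

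Syntaxin-binding proteins of the Munc18 type and their relatives regulate syntaxins. Stxbp2, Munc18-2, was at 3.29, 9.59 and 4.32 FPKM with G786-1089 and 11.1, 8.26 and 10.6 with DMSO. Library B with G786-1089 stood among the controls, and the log2 fold change of -0.80 ± 0.41 did not pass (edgeR, adjusted p = 0.263). Without that library the change was -1.39 and passed (edgeR, adjusted p = 0.0327). Stxbp4 and Stxbp5l overlapped between treatments at 1.79 to 6.28 and 1.3 to 5.79 FPKM. Stxbp3, Stxbp5 and Stxbp6 stayed at or below 1.21 FPKM.

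Priming proteins were the least expressed. Of 10 genes 3 were tested and 0 passed in edgeR, in DESeq2 or at an unadjusted p under 0.05. Rims2, a scaffold that binds Rab3 and calcium channels, was at 1.8, 1.67 and 1.17 FPKM with G786-1089 and 1.13, 0.556 and 1.2 with DMSO (log2 fold change 0.68 ± 0.38). Unc13a, Munc13-1, was at 0.413, 1.57 and 0.674 FPKM with G786-1089 and 0.303, 0.131 and 1.06 with DMSO (0.83 ± 0.84). Both overlapped between treatments. Cadps, which primes dense-core granules, was at 0 to 0.532 FPKM.

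Complexins and Doc2 proteins bind the assembled complex or sense calcium. Cplx1 was at 8.25, 8.03 and 6.06 FPKM with G786-1089 and 10.6, 6.86 and 9.46 with DMSO, overlapping, with a log2 fold change of -0.26 ± 0.25. Cplx2 was at 0.776, 1.42 and 0.699 FPKM against 1.52, 1.88 and 1.73, apart but with a change of -0.82 ± 0.39 that did not pass (edgeR, adjusted p = 0.227).

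Doc2g (chromosome 19, 4003313 to 4007005, plus strand), the Doc2 form regarded as not responsive to calcium, had 167, 425 and 19 counts in the G786-1089 libraries and 0 in each DMSO library. This was 1.39, 2.67 and 0.136 FPKM, so that the treated libraries differed widely among themselves. Set against a floor of 3 counts per library, the treated mean was 44.4-fold higher, and the lowest treated library 3.97-fold. The floor takes counts as independent fragments, which small counts here often were not, so these folds are no strict lower bounds. Its edgeR test (adjusted p = 0.0317) was reached only because the treated libraries passed the filter on low counts, so its place among the genes that rose is no independent support. With at least 10 counts in every library it is left out, and in limma-trend on all genes above 0 its adjusted p was 0.222. The call held without G786-1089 C (adjusted p = 0.0315) and was lost without any other library, with adjusted p between 0.0732 and 0.0877, and with the replicate block it was 0.0777. Of its exon bases, 57.5% are shared with Gm49405 on the same strand, which had 123, 50 and 97 counts with G786-1089 and 8, 47 and 0 with DMSO, so that reads of these genes cannot be fully told apart.

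Rab3 and Rab27 GTPases mark secretory granules. Of 6 genes 5 were tested and 2 fell. Rab3d (chromosome 9, 21907491 to 21918192, minus strand), found on exocrine and endocrine granules, was at 5.54, 6.74 and 4.32 FPKM with G786-1089 and at 14.8, 13.3 and 9.24 FPKM with DMSO. It did not overlap between treatments and changed by -1.17 ± 0.25 on the log2 scale (edgeR, adjusted p = 0.0255). The call held without G786-1089 B or DMSO C (adjusted p = 0.041 and 0.0304), and was lost without G786-1089 A or C or DMSO A or B (0.0767, 0.0758, 0.0874 and 0.0821).

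Rab3c (chromosome 13, 110054187 to 110280996, minus strand) was at 10.8, 9.75 and 6.74 FPKM with G786-1089 and at 14.5, 14.7 and 19.2 FPKM with DMSO. The treated library A lay closest to the controls. The log2 fold change of -0.82 ± 0.21 passed with all libraries (edgeR, adjusted p = 0.0414) and with none of the 6 left out in turn, where the adjusted p ran from 0.0521 without G786-1089 A to 0.12 without DMSO C. With the replicate block it was 0.116.

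Rab3a, the form most abundant in brain, was level at 20.5, 21.3 and 20.7 FPKM with G786-1089 and 21, 17.1 and 21.4 with DMSO, with a log2 fold change of 0.08 ± 0.15 (edgeR, adjusted p = 0.805). Its share of the Rab3 and Rab27 FPKM was 56.9% ± 5.48 with G786-1089 and 38.1% ± 2.69 with DMSO (exact permutation test, p = 0.1, 0.267 adjusted). Rab27a and Rab27b, which bring granules to the plasma membrane, were at 0.2 to 1.19 and 0.207 to 1.34 FPKM with G786-1089 and at 1.1 to 2.38 and 1.33 to 1.89 FPKM with DMSO. Their log2 fold changes of -1.42 ± 0.70 and -1.37 ± 0.69 did not pass (edgeR, adjusted p = 0.246 and 0.259). Rab27b passed without G786-1089 A (adjusted p = 0.0243). The sum of the family was 36.9 ± 3.53 FPKM with G786-1089 and 51.95 ± 2.96 with DMSO.

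**Figure D4:**
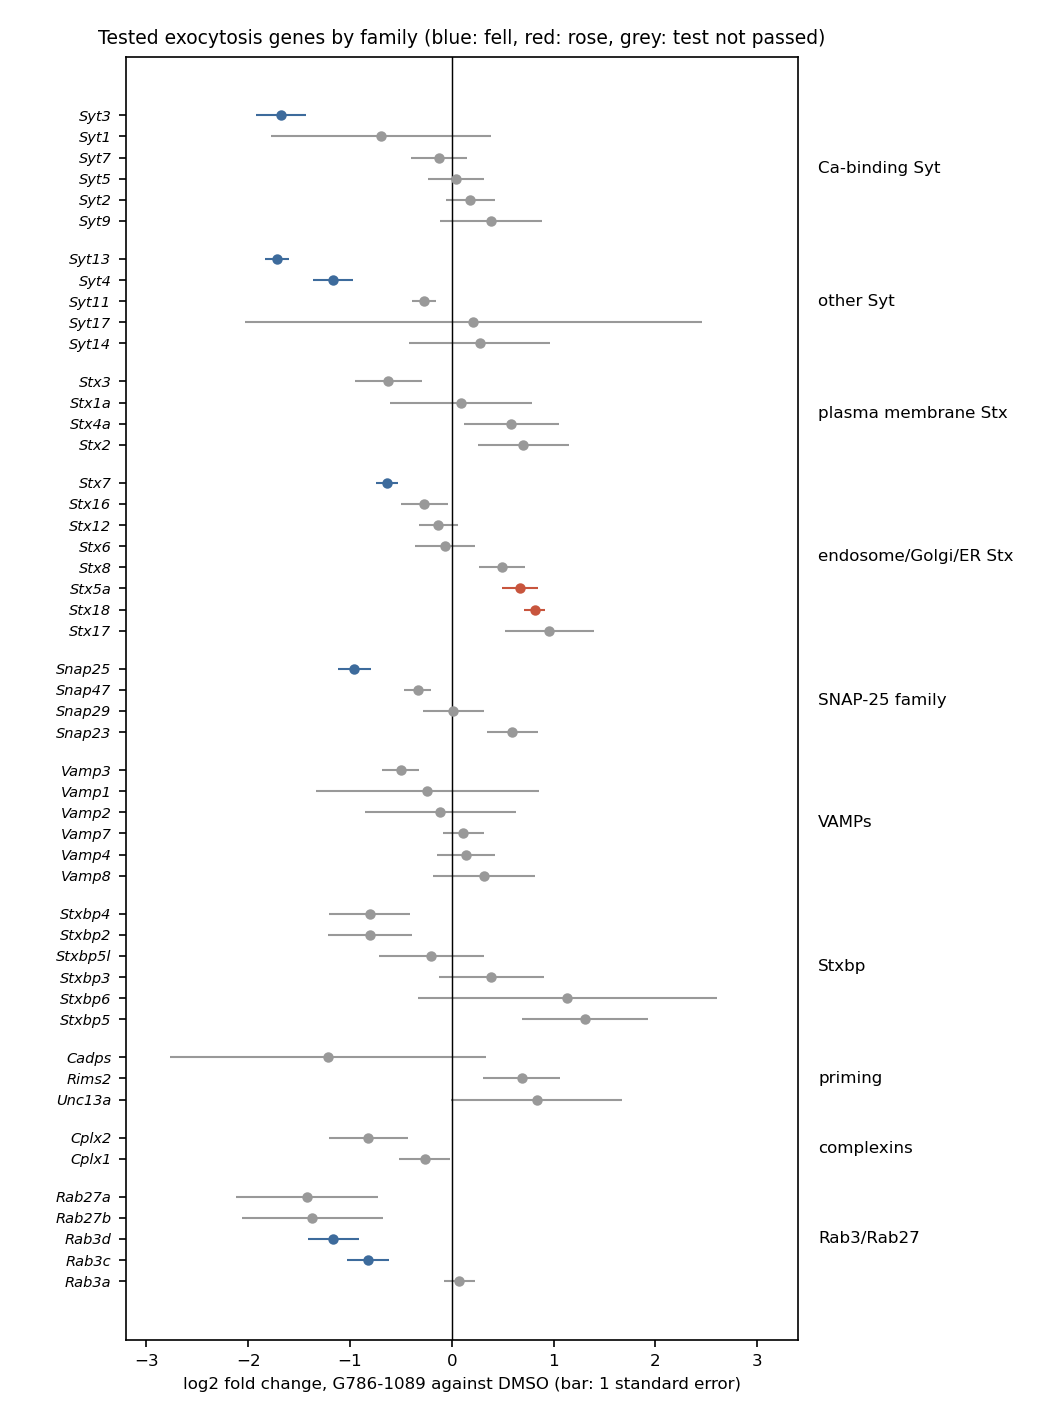
Log2 fold change of G786-1089 against DMSO (horizontal axis) with 1 standard error (bars) for the tested members other than Doc2g and a gene not reported here, grouped by family; blue fell, red rose, grey did not pass. Blue points sit in 5 of the groups, and red points in the syntaxins of the endosome, Golgi and ER alone.

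The 22 members that were not tested do not enter these counts. Of them, 17 had 0 counts in every library, a result that allows up to 3 counts if counts are independent: Syt6, Syt8, Syt10, Syt15, Syt16, Stx11, Stx19, Vamp5, Rims1, Rims3, Unc13c, Unc13d, Cadps2, Cplx3, Cplx4, Doc2a and Doc2b. A few counts were found for Unc13b and Syt12, up to 10 and 1 in a library. Rims4 had 0, 34 and 195 counts with G786-1089 and 0, 8 and 4 with DMSO. Rab3b had 19, 3 and 41 counts with G786-1089 and 0 in each DMSO library, under the filter for testing. The tested and untested members were alike in length and base composition, with medians of 3886 and 4178 exon bases and of 49.55% and 50.06% GC.

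Genes that act with the fusion machinery were followed in a list of 68: NSF and its adaptors, other SNAREs, the exocyst, Rab3 and Rab27 effectors, active zone proteins, vesicle membrane proteins and calcium channels. Of 58 tested, 3 rose and 1 fell, or 6.9%, with a median log2 fold change of 0.11. This was below the 14.8% of all 15082 tested genes in edgeR. In DESeq2 the share was 26.2% of 61 partner genes beside 18.1% of 23783 genes. DESeq2 was run on every gene with a count, without edgeR's filter, so its share of all genes includes many genes with few counts. A gene that DESeq2 left without an adjusted p still counts in these totals as not passed. The shares of the tools thus rest on unlike sets of genes, and whether their order turns with the tool on the same genes was not tested. The exocyst, the Rab effectors, the active zone and the calcium channels, with 33 tested genes, had 0 calls in edgeR, 9 at an unadjusted p under 0.05 (6 of them higher) and 8 in DESeq2 (6 higher).

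Bnip1 encodes Sec20, an ER SNARE that works in a complex with Stx18. It was at 29.2, 26.7 and 22.5 FPKM with G786-1089 and 7.91, 13.2 and 5.97 FPKM with DMSO, apart, with a log2 fold change of 1.54 ± 0.33 (edgeR, adjusted p = 0.0256). That call held without DMSO B (0.0174) and was lost without any other library, with adjusted p between 0.0596 and 0.094. Use1, of the same ER complex and named after its value was seen, was at means of 90.5 FPKM with G786-1089 and 125.8 with DMSO, and its log2 fold change of -0.47 ± 0.16 did not pass (edgeR, adjusted p = 0.0984).

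Dnajc5, the cysteine string protein that chaperones Snap25 on vesicles, was at 18.9, 19.5 and 17.5 FPKM with G786-1089 and 9.07, 9.03 and 12.4 with DMSO (0.88 ± 0.15; edgeR, adjusted p = 0.0119). It thus moved opposite to Snap25 in these libraries. Napa, the adaptor by which NSF takes used SNARE complexes apart, was at 289, 322 and 289 FPKM with G786-1089 and 231, 233 and 248 with DMSO (0.34 ± 0.07; edgeR, adjusted p = 0.0179), a small change that was lost without DMSO A or B (0.075 and 0.0699) and with the replicate block (0.0654). Its close relative Napb, of the study's splicing panel, did not pass at -0.40 ± 0.22 (edgeR, adjusted p = 0.3). Syngr1, a synaptogyrin of vesicle membranes, was the gene that fell, at 12.4, 17.2 and 11.8 FPKM with G786-1089 and 32.3, 29.6 and 33.3 with DMSO (-1.20 ± 0.16; edgeR, adjusted p = 0.00524).

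**Figure D5:**
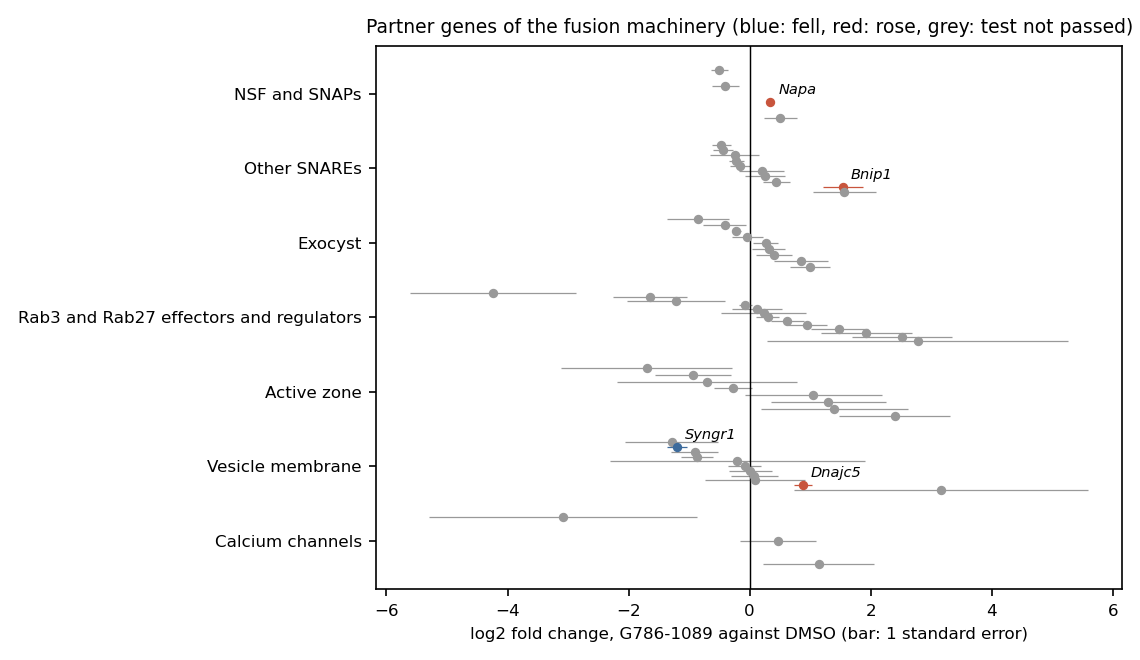
Log2 fold change of G786-1089 against DMSO (horizontal axis) with 1 standard error (bars) for the 58 tested partner genes, by group; blue fell, red rose, grey did not pass. The 4 named genes passed, while several grey points lie farther from 0 with wider bars.

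Many of these genes are shared with neurons and other endocrine cells, and markers of such cells were read beside them. Of 3 neuron markers, Eno2 rose, Tubb3 did not pass and the defining Rbfox3 was at 0.00856 to 0.43 FPKM, with summed levels of 262.9 to 315.8 FPKM with G786-1089 and 186.7 to 217.6 with DMSO. The δ cell markers Sst and Hhex, the PP cell marker Ppy and the β cell marker Ins1 were at 0 in every library, and the 6 β cell markers summed to 1.42 to 3.91 FPKM against 3.64 to 4.82. Acinar markers summed to 13.6 to 21.8 FPKM with G786-1089 and 4.46 to 10.6 with DMSO, all from Cela1, with Cpa1 and Prss2 at 0. Macrophage markers summed to 5.85 to 13.9 FPKM against 4.23 to 6.25, duct markers to 0.428 to 0.791 against 0.533 to 1.31, and fibroblast markers to at most 0.0403 against 0.28 to 0.842. The part of these markers in the changes of the exocytosis genes was not tested.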

How the data were processed

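RNA of 6 αTC1 libraries was prepared by Smart-seq2 and not strand-specific. Reads were aligned to GRCm38 with STAR (2.7.9a in the submitters' processing notes), and the authors deposited unnormalized counts per gene and FPKM values, whose making is not given in the sources used here. Members and lists were chosen with earlier results of these data known. Columns carry letters that could not be tied to the replicate numbers of the labels; 0 columns of other samples were left out.

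The counts were tested by edgeR 4.0.16 (R 4.3.3) with TMM factors, filterByExpr (minimum count 10, minimum total 15) and the quasi-likelihood test of treatment, adjusted by Benjamini-Hochberg over the whole table. A standard error is the size of the log2 fold change over the root of F. FPKM served for levels, shares and ranges. Leading shares were compared by the exact two-sided permutation test.

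Members that passed, the 2 highest in each family, Syt7, partner genes that passed and Napb were named by rule; other members were named to account for the rest, and results of a few genes are not reported here. Tried besides were DESeq2 1.42.0, scaling by RLE factors or by library size alone, filters of at least 1 count in any or 10 in every library, limma-trend (limma 3.58.1) on log2(FPKM + 1 or 0.1) with a mean FPKM of at least 1, or + 1 on all genes above 0, a replicate block, each library left out, and the study's limits. The scripts were tested on simulated data. Gene positions and exons came from GENCODE vM21 basic, where 72 members had the same coordinates, and promoters from RefSeq. Counting error is small at these depths except for genes with few counts.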

Additional observations from a re-analysis of the deposited data

How the results depend on the processing

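Besides the study's limits there were 15 alternatives, and Syt13, Syt3, Syt4, Snap25, Stx7 and Stx18 passed under all of these. Rab3d passed in 10, Stx5a in 7 and Rab3c in 5 of the 15, and Doc2g in 5 of 12. With the study's limits, Syt13, Syt3, Syt4, Rab3d and Doc2g passed. Snap25, Stx7, Stx18, Stx5a and Rab3c did not, as their log2 fold changes (-0.96, -0.64, 0.81, 0.67 and -0.82) were under 1 in size. Of 11 members past the threshold with all libraries, the count was 7 with limma-trend on all genes above 0 (1 higher) and 5 with the study's limits (1 higher, 4 lower). With each library left out it was 6 to 8, with 1 to 2 higher and 5 to 7 lower. For all genes, where 2230 passed, it was 4298 with DESeq2 and 1253 to 1556 with a library left out. The partner genes, 4 of which passed, gave 16 with DESeq2, 7 with at least 10 counts in every library, 8 with limma-trend at either pseudocount, and 2 to 4 with a library left out. The cause of these shifts was not tested, and the fits with a library left out also had fewer libraries. Library size only moved the median log2 fold change of all genes from 0.04 to 0.25 and that of the members from -0.11 to 0.09, and gave 1630 genes higher and 796 lower in place of 1053 and 1177, with 3 members higher and 6 lower. The sign turned under at least 1 alternative for 14 of the 51 tested members, 0 of which passed under any. Of the members named by rule these were Rab3a with a library left out (log2 fold change -0.023 to 0.126, negative without DMSO B) and Syt7 with library size only (0.080) and with a library left out (-0.259 to 0.076, positive without DMSO A). The others were Syt2, Syt5, Syt14, Syt17, Stx1a, Stx6, Stx12, Snap29, Vamp1, Vamp2, Vamp4 and Stxbp5l. Genes under 1 FPKM had the largest standard errors, and whether depth set them was not tested.

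The study's methods speak of replicates handled together, but whether a column letter marks a replicate is not stated, and same letters did not deviate together, with correlations of same-letter deviations of 0.0151, 0.00274 and 0.0251 across genes. With a replicate block by letter, 7 members (1 of them higher), 3 partner genes and 1232 of all genes passed. Rab3c (adjusted p = 0.116, edgeR), Stx5a (0.0681), Doc2g (0.0777) and Napa (0.0654) were among those then no longer past the threshold.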
